A study of Homo sapiens with 6 samples.

Results

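The nuclear genes of the respiratory chain were followed in ATAC-seq summit lists of breast cancer cells with and without SAP30. The genes were chosen by name in the GENCODE release 44 annotation mapped to hg19 (GRCh37), as protein-coding genes of chromosomes 1 to 22 and X named as subunits of NADH dehydrogenase (NDUFA, NDUFB, NDUFC, NDUFS and NDUFV), succinate dehydrogenase (SDHA to SDHD), the cytochrome bc1 complex (UQCR genes and CYC1), cytochrome c oxidase (COX4 to COX8) and ATP synthase (ATP5F, ATP5M and ATP5P). The rule gave 98 of 20098 protein-coding genes. They were 40 genes of complex I, 8 assembly factors of complex I that share its prefix (NDUFAF genes), 4 genes of complex II, 10 of complex III, 17 of complex IV and 19 of complex V. The names include 2 readthrough genes, NDUFC2-KCTD14 and ATP5MF-PTCD1, which start at and share the summits of NDUFC2 and ATP5MF. NDUFA4 was counted with complex I by its name, although its protein is now assigned to cytochrome c oxidase.

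The respiratory chain passes electrons from NADH and succinate through complexes I to IV to oxygen, and pumps protons across the inner mitochondrial membrane. Complex V uses the proton gradient to make ATP. Most subunits are encoded in the nucleus and a small core, except in complex II, in the mitochondrial genome. The promoters of the nuclear genes are known for sites of NRF1, the ETS factor GABPA and YY1. Several subunits of cytochrome c oxidase have a second isoform restricted to muscle, heart, lung or testis.

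MDA-MB-231, a cell line of human triple-negative breast cancer, was used throughout. Unmodified parental cells were compared with SAP30-KO1 cells, which had lost SAP30 by CRISPR/Cas9 knockout, with 3 libraries of each. SAP30 belongs to the SIN3 corepressor complex. Per the study's methods, a knockout line was a mixture of several selected single knockout cells, so SAP30-KO1 differs from the parental line by selection as well as by genotype. The labels do not say whether replicates were separate cultures, and p-values then measure only the spread between these libraries, which may be technical.

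Each library had its own list of 29762 to 40650 summits, and no pair of lists shared more than 0.598% of its positions. Read counts are not part of the lists, the depth behind a value is therefore unknown, and a summit missing from a list does not show closed chromatin. The promoters of the line's markers VIM, CD44 and EGFR had a summit in all 6 libraries and that of EPCAM in 5. CDH1 had no promoter summit, and ESR1 and PGR, the hormone receptor genes, had a promoter summit in 1 library each. SAP30 itself kept a promoter summit in all 6 libraries (mean rank 76.9 in parental and 70.3 in SAP30-KO1 cells), which does not check the knockout, since an edit of the gene need not change the accessibility of its promoter.

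A promoter was described by the strongest summit within 1 kb of any annotated start site of the gene. Scores of separately called lists have no common scale. The score was therefore turned into its percentile rank within its own library, from just above 0 for the weakest summit to 100 for the strongest, and set to 0 where the promoter had no summit. All values called a rank below are on this scale, and differences are SAP30-KO1 minus parental, in points of rank.

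First, it was asked how many of the respiratory promoters were open. Of the 98 genes, 42 (42.9%) had a promoter summit in all 6 libraries, against 34.7% of all protein-coding genes. A further 35 had one in 3 to 5 libraries and 10 in 1 or 2. None was found for 11 genes (11.2%), against 37.5% of all genes. The mean rank over 6 libraries had a median of 34.9 over the 98 genes and of 12.98 over all genes. Among genes with a summit in all 6 libraries the medians were 71.9 and 71.3, so the respiratory promoters were open more often than the average promoter but, where open throughout, not ranked apart from others.

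**Figure D1:**
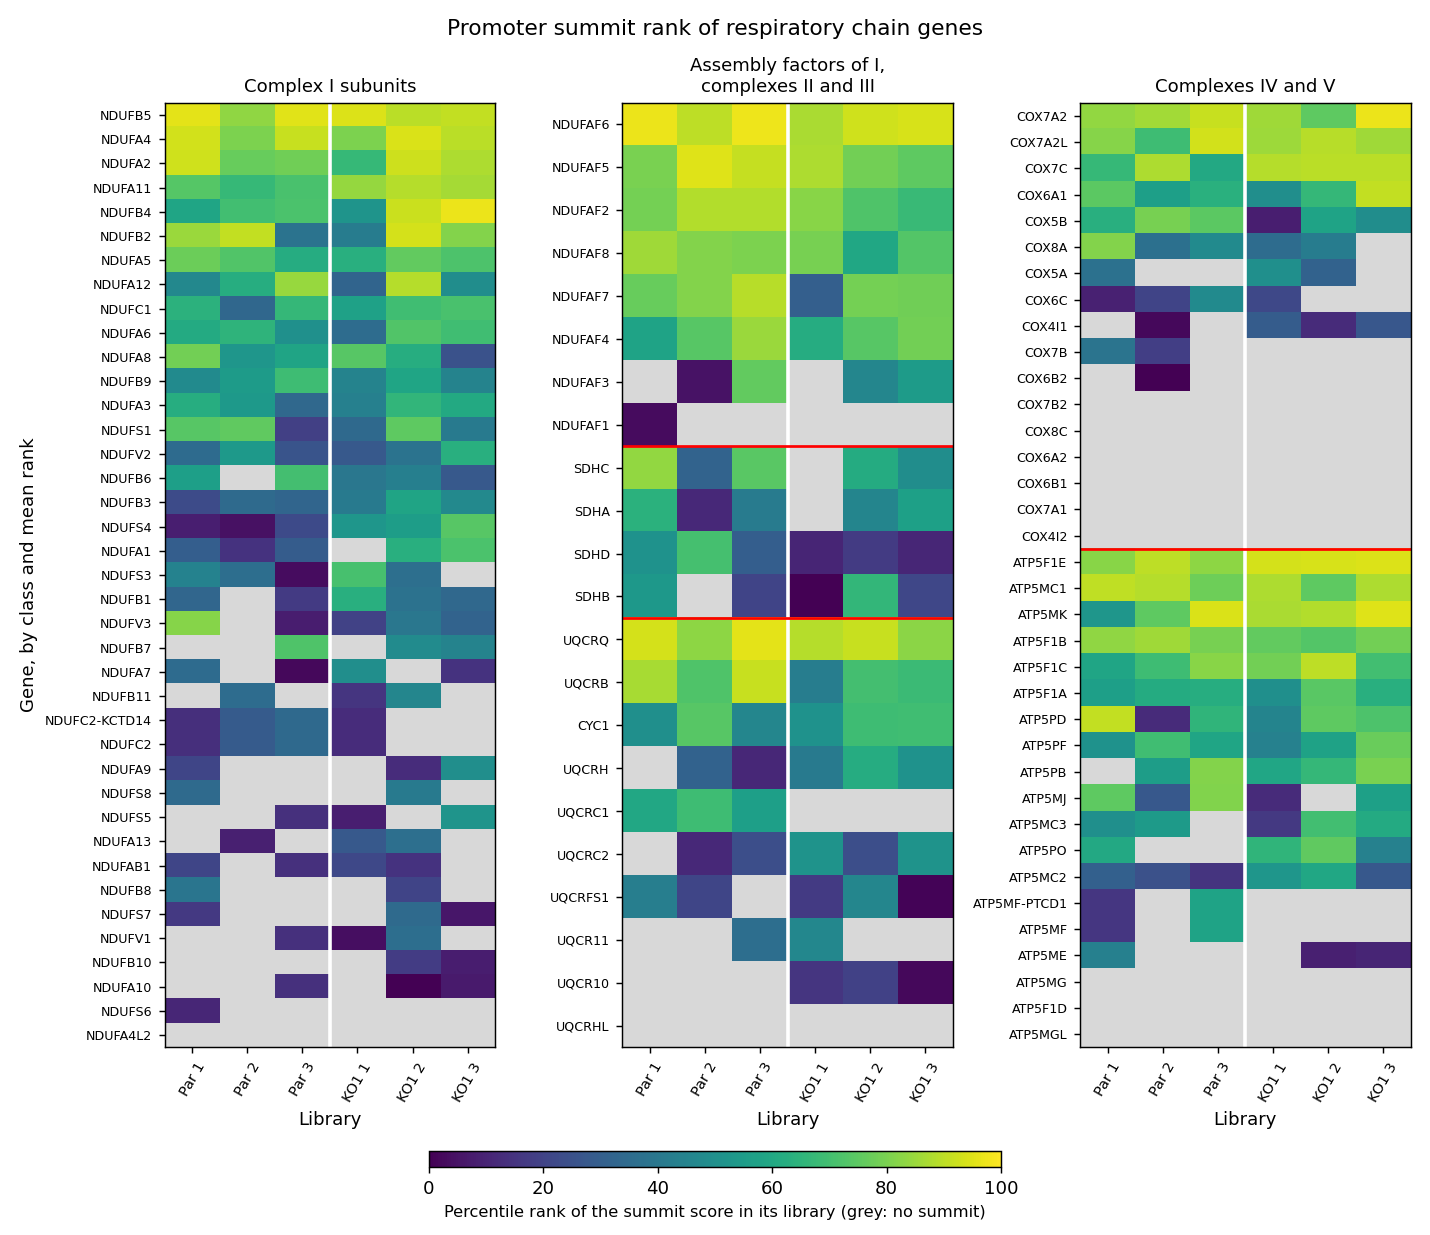
Percentile rank of the strongest promoter summit of the 98 genes except 1 (rows) in each of the 6 libraries (columns, Par for parental), on a colour scale from 0 to 100 with grey for no summit. Rows are ordered by class, divided by red lines, and by mean rank, and the 11 genes without any summit are the all-grey rows.

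The complexes differed in how open their promoters were. A summit in all 6 libraries was found for 18 of 40 subunit genes of complex I, 6 of the 8 assembly factors, 1 of 4 genes of complex II, 3 of 10 of complex III, 5 of 17 of complex IV and 9 of 19 of complex V. Within a library, the mean rank of the complex I subunits was above that of complex IV in 6 of 6 libraries, by 3.99 to 19.6 points, and above that of complex III in 3 of 6. With the assembly factors counted in, complex I was above complex III in 6 of 6, by 0.206 to 11.4 points. Complex III was above complex IV in 6 of 6, by 1.76 to 10.9 points. Complex V was above complexes III and IV and the subunits of complex I in every library. Complex II changed place from library to library. These are descriptions of gene lists of unequal size, and no test was made between complexes.

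The place of complex IV depended on its isoforms. Without its 6 genes for restricted isoforms (COX4I2, COX6A2, COX6B2, COX7A1, COX7B2 and COX8C), the mean rank of complex IV was 44.6 ± 3.72 (parental) and 41.1 ± 1.14 (SAP30-KO1, SD, n = 3 each), against 28.9 ± 2.40 and 26.6 ± 0.738 with them.

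**Figure D2:**
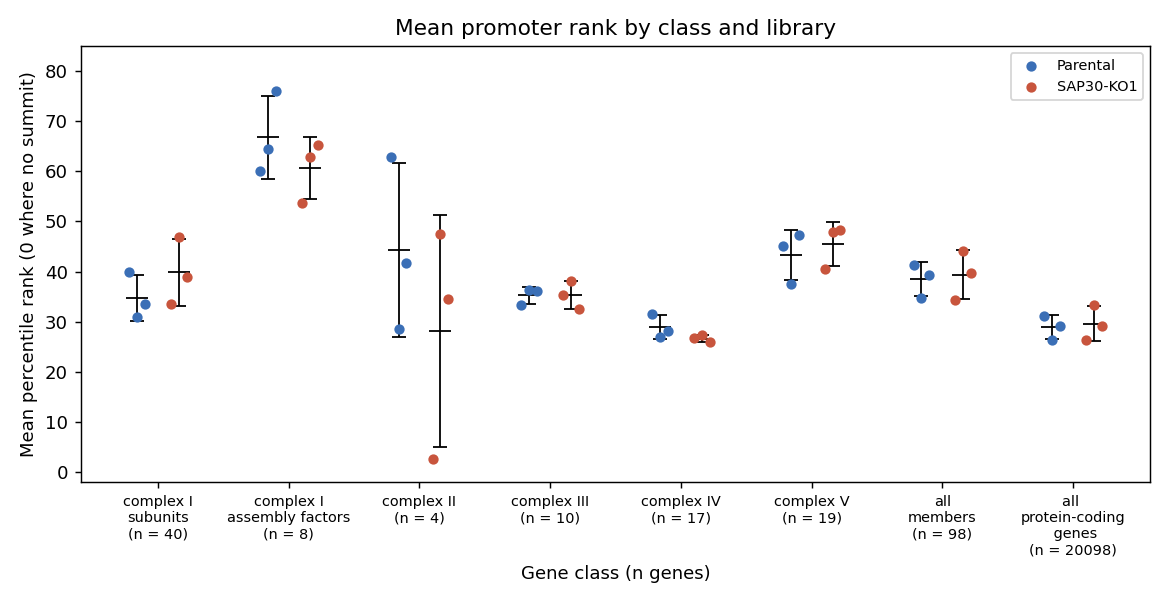
Mean promoter rank of each gene class in each library, with points for the 3 parental and 3 SAP30-KO1 libraries and bars for the mean ± SD over libraries. By group mean, assembly factors lie highest and complex IV lowest in parental cells, and complex II spreads from 2.59 to 62.8 between libraries.

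The most open promoters of complexes I, III, IV and V are shown first, as sequence, from the GRCh37 genome. Each run holds 250 bases before the annotated start site of the main transcript and 30 from it on, 5′ to 3′ on the strand of the gene, and capitals mark matches, on either strand, to any of 8 motifs that were searched. These were GCATGCGC (NRF1), CCGGAAGT (ETS factors), AAGATGGC (YY1), the TATA box TATAAA, the GC box GGGCGG, the CCAAT box, the E box CACGTG and the CRE TGACGTCA. A match is a run of letters, not a site shown to be bound. NDUFB5 (chr3:179322332-179322611, plus strand) had the highest mean rank of the subunits of complex I, UQCRQ (chr5:132202084-132202363, plus strand) of complex III, COX7A2 (chr6:75953488-75953767, minus strand) of complex IV and ATP5F1E (chr20:57607361-57607640, minus strand) of complex V.
NDUFB5: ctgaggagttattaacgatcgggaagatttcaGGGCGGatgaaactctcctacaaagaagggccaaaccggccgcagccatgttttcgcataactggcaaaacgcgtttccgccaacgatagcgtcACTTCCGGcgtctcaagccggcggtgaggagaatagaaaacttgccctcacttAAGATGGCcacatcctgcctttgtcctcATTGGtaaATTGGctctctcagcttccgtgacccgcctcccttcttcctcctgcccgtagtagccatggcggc
UQCRQ: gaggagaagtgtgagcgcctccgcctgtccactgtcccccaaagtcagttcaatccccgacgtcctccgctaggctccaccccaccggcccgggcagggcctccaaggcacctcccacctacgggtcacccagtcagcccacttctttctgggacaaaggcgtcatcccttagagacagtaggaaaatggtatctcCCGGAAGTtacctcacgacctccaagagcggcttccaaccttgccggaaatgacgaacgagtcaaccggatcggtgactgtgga
COX7A2: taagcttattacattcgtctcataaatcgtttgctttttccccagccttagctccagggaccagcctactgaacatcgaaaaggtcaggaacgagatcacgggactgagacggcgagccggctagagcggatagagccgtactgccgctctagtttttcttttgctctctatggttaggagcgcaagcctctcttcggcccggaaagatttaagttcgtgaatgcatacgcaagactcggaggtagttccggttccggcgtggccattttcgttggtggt
ATP5F1E: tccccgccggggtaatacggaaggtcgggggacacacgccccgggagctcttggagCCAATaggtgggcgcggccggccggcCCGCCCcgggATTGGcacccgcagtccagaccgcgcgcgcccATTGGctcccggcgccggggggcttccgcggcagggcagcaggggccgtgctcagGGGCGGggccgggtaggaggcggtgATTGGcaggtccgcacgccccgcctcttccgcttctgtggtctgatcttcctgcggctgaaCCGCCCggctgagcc

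These promoters reached a similar rank with different letters. NDUFB5 held a GC box 218 bases before the start, an ETS match at 124 and a YY1 match at 71, and a pair of CCAAT matches on the opposite strand. UQCRQ held a single ETS match 54 bases before the start, and COX7A2 no match to any of the 8 motifs. ATP5F1E held 4 CCAAT matches and 3 GC boxes and none of the NRF1, ETS or YY1 letters.

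The motifs were counted in all 98 promoters and in the promoters of all genes. The NRF1 letters were in 15.3% of the promoters against 4.17% of all, the YY1 letters in 14.3% against 3.30%, and the ETS letters in 13.3% against 6.06%. The CRE (5.10% against 2.69%) was also more frequent, but in only 5 promoters. The E box (9.18% against 8.53%) and the GC box (59.2% against 60.1%) were near the share of all genes. The TATA box (6.12% against 9.67%, in 6 promoters) and CCAAT (30.6% against 35.3%) were less frequent. By complex, the YY1 letters were in 9 of the 48 promoters of complex I with its assembly factors and in none of the 17 of complex IV. The NRF1 letters were in 8 of the same 48 and in none of the 10 of complex III. In lists this small, a count of none says little.

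Respiratory promoters with most of these motifs had higher mean ranks than those without, and so had promoters of all genes. The motifs were read at the start site of the main transcript, but the rank came from the strongest summit near any start site. The 2 can therefore lie apart. In NDUFAF5, which held the NRF1 letters, the summit lay a median of 15763.5 bp from the main start site. In ATP5F1A, with the ETS letters, it lay at -6229 bp (negative is upstream). Of the 15 respiratory promoters with the NRF1 letters, 11 had a summit in all 6 libraries and none lacked a summit, and their mean ranks had a median of 58.6 against 31.9 for the 83 without. Among all genes the medians were 35.8 with and 11.9 without the NRF1 letters. For the ETS letters, 9 of 13 respiratory promoters had a summit in all 6 libraries and the medians were 55.5 with and 30.9 without, against 43.9 and 10.6 among all genes. For the YY1 letters, 7 of 14 had a summit in all 6 libraries and the medians were 51.7 and 32.3, against 35.0 and 11.99 among all genes. The gap was not particular to these factors, as respiratory promoters with and without CCAAT had medians of 59.6 and 31.3, and those with and without the E box 57.1 and 34.7. For the TATA box, in 6 respiratory promoters (15.4 and 36.4), and the CRE, in 5 (26.9 and 35.1), those without the letters had the higher median. Among all genes this held for the TATA box (0 with and 16.7 without) but not for the CRE (35.9 and 12.4).

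Many respiratory genes share their promoter with a neighbour. A divergent main start site of another protein-coding gene lay within 1 kb for 29 of the 98 genes (29.6%), against 9.38% of all genes. None of these 29 lacked a summit, and 16 of them had one in all 6 libraries, against 26 of the other 69. By complex they were 17 of 48 in complex I with its assembly factors, 2 of 4 in complex II, 3 of 10 in complex III, 6 of 19 in complex V and 1 of 17 in complex IV, which was COX4I1 with EMC8. Some partners also act in mitochondria or on respiratory genes, among them MRPL47, a mitochondrial ribosomal protein gene 156 bp from NDUFB5, TIMM8B, a gene for a mitochondrial import protein 117 bp from SDHD, and GABPA, the gene for the ETS factor itself, 68 bp from ATP5PF. A summit between such a pair cannot be assigned to either gene.

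The summits lay close to the start sites. Among the 87 respiratory genes with a summit, the median position was 23.5 bp upstream of the nearest annotated start site, with a median distance of 80.0 bp in either direction, against 29.5 and 97.0 bp over all genes. The share within 100 bp was 54.0% and 51.2%. NDUFAF5, at a median of 720.5 bp upstream, NDUFA11 at 573.5 bp and UQCR11 at 507.0 bp were the farthest. In 5 genes (NDUFAF5, NDUFV3, SDHA, NDUFA12 and NDUFV2) the strongest summit moved by more than 2 kb between libraries, from one annotated start site to another.

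**Figure D3:**
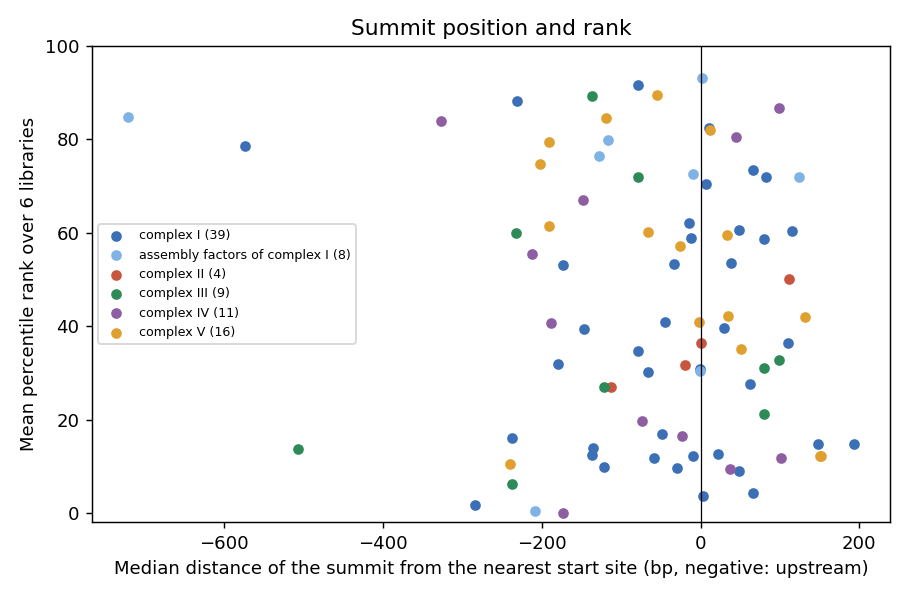
Median distance of the strongest summit from the nearest annotated start site (x axis, bp, negative is upstream) against the mean rank over 6 libraries (y axis) for the 87 genes with a summit, coloured by class. Most points lie within 200 bp of the start, at every rank.

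The level of each class is described next. In complex I, the subunit genes ran from NDUFB5 (91.7), NDUFA4 (88.2) and NDUFA2 (82.5) down to NDUFA10 (3.53), NDUFS6 (1.76) and NDUFA4L2, which had no summit. NDUFB5, an accessory subunit of the membrane arm, had ranks of 95.8, 83.3 and 95.6 in the parental and 94.5, 89.8 and 91.0 in the SAP30-KO1 libraries. The groups overlapped, with the lowest library, at 83.3, a parental one. The subunit with the lowest mean rank among those with a summit in all 6 libraries was NDUFS4 (36.4), which is described with the genotypes. Core subunits of complex I were spread over the range, with NDUFS1 at 53.1, NDUFV2 at 40.8, NDUFS3 at 31.9, NDUFS8 at 12.6, NDUFS7 at 9.52 and NDUFV1, which binds NADH, at 8.93.

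The assembly factors of complex I help to build the complex without being part of it. NDUFAF6 had the highest mean rank of all 98 genes, at 93.1, with ranks of 97.0, 90.0 and 97.4 in the parental and 87.1, 92.9 and 93.9 in the SAP30-KO1 libraries, which overlapped. NDUFAF4 was the lowest of those with a summit in all 6 libraries (72.0), and NDUFAF1 had a summit in 1 library alone, at a rank of 2.74.

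Complex II is the only complex with no mitochondrially encoded subunit, and its 4 genes varied strongly between libraries. SDHC, a membrane anchor, had ranks of 83.7, 31.9 and 74.5 in the parental and 0, 61.5 and 49.2 in the SAP30-KO1 libraries. SDHA, the flavoprotein that oxidises succinate, had 63.7, 11.5 and 41.6 and then 0, 45.3 and 56.8. SDHB, the iron-sulfur subunit, had 53.1, 0 and 20.7 and then 0.193, 66.3 and 21.3. All these groups overlapped, and SAP30-KO1 replicate 1 was the lowest library for SDHC and SDHA and the second lowest for SDHB. SDHA has near-identical copies elsewhere in the genome, so its reads may have been divided in mapping, and its value is uncertain.

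SDHD was the only gene of complex II with a summit in all 6 libraries. Its promoter is printed because it holds overlapping NRF1 matches on both strands, 110 and 108 bases before the start, and an ETS match at 78 (chr11:111957347-111957626, plus strand), and because its ranks were lower in SAP30-KO1.
SDHD: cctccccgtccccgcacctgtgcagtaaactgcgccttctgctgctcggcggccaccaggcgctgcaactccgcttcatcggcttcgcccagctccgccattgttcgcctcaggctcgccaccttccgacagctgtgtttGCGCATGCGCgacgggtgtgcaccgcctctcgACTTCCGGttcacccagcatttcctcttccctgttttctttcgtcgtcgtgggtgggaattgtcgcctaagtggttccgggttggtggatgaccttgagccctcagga

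In complex III, UQCRQ, a small subunit of the dimer, led with a mean rank of 89.3, with ranks of 93.4, 83.2 and 95.8 in the parental and 88.8, 91.8 and 82.5 in the SAP30-KO1 libraries, which overlapped. CYC1, the gene for cytochrome c1, had a mean rank of 59.96 and was the lowest of the 3 genes with a summit in all 6 libraries. UQCRFS1, the Rieske iron-sulfur protein, had 21.2. UQCRHL, a near-identical copy of UQCRH, had no summit, and reads of the pair may be divided or dropped in mapping.

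In complex IV, COX7A2 had the highest mean rank (86.7), with ranks of 83.9, 86.2 and 91.5 in the parental and 85.9, 75.4 and 97.1 in the SAP30-KO1 libraries. COX7A2L, which acts in supercomplex assembly, followed at 84.0, and COX7C at 80.5. COX5B was the lowest of the 5 with a summit in all 6 libraries, at 55.5. In complex V, ATP5F1E, the epsilon subunit of the F1 head, had the highest mean rank (89.6), followed by ATP5MC1 (84.6), a gene for the c ring. ATP5MC2, another gene for the same c subunit, was the lowest of the 9 with a summit in all 6 libraries (35.1), and ATP5MC3, the third gene for it, had 42.0.

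Isoform pairs were compared next. In 7 of the 9 pairs followed, the widely expressed gene had a summit in some or all libraries and its restricted or duplicated partner had none in any. The mean ranks were 88.2 for NDUFA4 against none for NDUFA4L2, 86.7 for COX7A2 against none for COX7A1, and 67.0 for COX6A1 against none for COX6A2. COX8A had 40.6 and COX8C, a testis isoform, had none. COX4I1 had 11.8, COX7B had 9.49 and UQCRH had 32.7, and COX4I2, COX7B2 and UQCRHL had none. COX7B had a summit in 2 libraries, both parental, and COX4I1 in 4, of which 1 was parental. The partners COX7A1 and COX6A2 are the isoforms of heart and skeletal muscle.

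The other 2 pairs did not follow this pattern. COX6B1, the ubiquitous form of its subunit, had no summit in any library, and COX6B2, the testis form, had a weak one in 1 library (rank 0.274). ATP5MG and ATP5MGL both had none. With ATP5F1D, the delta subunit of the F1 head, COX6B1 and ATP5MG were the 3 genes of ubiquitous subunits without any promoter summit. The nearest summit of any kind lay 3.70 to 19.7 kb from a start site of COX6B1, 8.35 to 35.9 kb from ATP5F1D and 9.59 to 18.7 kb from ATP5MG, depending on the library. Among the 15 glycolytic genes followed, a list with several genes for some steps, TPI1 and PFKP had no promoter summit either. GAPDH had one in 2 libraries. The COX6B1 promoter (chr19:36138975-36139254, plus strand) is printed as an example of a promoter of a ubiquitous subunit without a summit, and its matches are to CCAAT alone.
COX6B1: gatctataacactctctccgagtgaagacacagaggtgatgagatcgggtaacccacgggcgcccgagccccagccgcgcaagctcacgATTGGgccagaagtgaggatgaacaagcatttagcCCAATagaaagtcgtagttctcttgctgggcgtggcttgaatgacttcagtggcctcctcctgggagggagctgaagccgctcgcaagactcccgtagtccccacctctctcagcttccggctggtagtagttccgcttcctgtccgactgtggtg

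Next, parental and SAP30-KO1 cells were compared. As a list, the respiratory promoters did not differ beyond the spread between libraries. The parental libraries had a summit at 72, 63 and 69 of the 98 promoters and the SAP30-KO1 libraries at 68, 73 and 67 (68 ± 4.58 and 69.3 ± 3.21, SD, n = 3), a difference of 1.33 genes. The mean rank over the 98 genes was 38.5 ± 3.42 and 39.4 ± 4.96 (SD, n = 3), a difference of 0.947 points, against 0.717 points over all protein-coding genes. Both groups overlapped on both measures. Among the 77 genes with a summit in at least 3 libraries, 45 had a higher mean in SAP30-KO1, and the median difference was 2.26 points against 0.760 points over the 10497 genes tested.

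By complex, no class lay apart between the genotypes. The subunits of complex I averaged 34.8 ± 4.63 in the parental and 39.8 ± 6.74 in the SAP30-KO1 libraries, complex III 35.2 ± 1.66 and 35.4 ± 2.82, and complex V 43.3 ± 5.07 and 45.5 ± 4.41 (SD, n = 3). The assembly factors averaged 66.8 ± 8.25 and 60.6 ± 6.17. Complex II had the widest gap, 44.3 ± 17.3 and 28.2 ± 23.1, and the widest spread, as its mean in SAP30-KO1 replicate 1 was 2.59. Without that library the difference of complex II was -3.27 points in place of -16.1, and without Parental replicate 1 it was -6.84. For the subunits and assembly factors of complex I together, the difference of 3.17 points was 6.36 without SAP30-KO1 replicate 1, 1.36 without Parental replicate 2 and 0.0112 without SAP30-KO1 replicate 2. Genes with a head-to-head partner averaged 46.2 ± 1.90 and 50.5 ± 4.11, and those without 35.2 ± 4.23 and 34.8 ± 5.41.

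Gene by gene, limma was fitted on the ranks of the 10497 genes with a promoter summit in at least 3 libraries, with Benjamini-Hochberg adjustment over all of them. It called none of the 77 respiratory genes tested, and no gene at all (0.0% of 10497 genes at an adjusted p under 0.05). Without the mean-variance trend it called 1 gene, not a respiratory one. On the logit of the rank, among genes with a summit in all 6 libraries, it also called 1 gene, not a respiratory one. In the main fit the lowest adjusted p of a respiratory gene was 0.707. At an unadjusted p under 0.05 there were 7 of 77 (9.09%), 5 higher and 2 lower in SAP30-KO1, against 697 of all genes (6.64%). With 3 libraries against 3, an exact permutation test of a single gene cannot give a p below 0.1 (two-sided), which is reached only when all ranks of one group lie above those of the other. Genes of that kind are described below as lying apart, by their ranks and without a call.

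Of the 77 respiratory genes, 18 (23.4%) lay apart, against 12.7% of all genes tested. They were 10 genes higher in SAP30-KO1 (12.99%, against 7.19% of all) and 8 lower (10.4%, against 5.48% of all). The readthrough gene NDUFC2-KCTD14 repeats NDUFC2 in this count. UQCRC1 and UQCR10 had summits in 1 group alone and so entered the fit only through the group where they were high. The genes are not independent tests, and the excess over the background was not tested. Counting NDUFC2 once, 17 of 76 (22.4%) lay apart. The share depended on the summits used. When each library was reduced to an equal number of its strongest summits, 11 of 72 (15.3%) lay apart, against 14.0% of all genes tested that way. Among genes with a summit in all 6 libraries it was 10 of 42 (23.8%), against 12.8%.

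**Figure D4:**
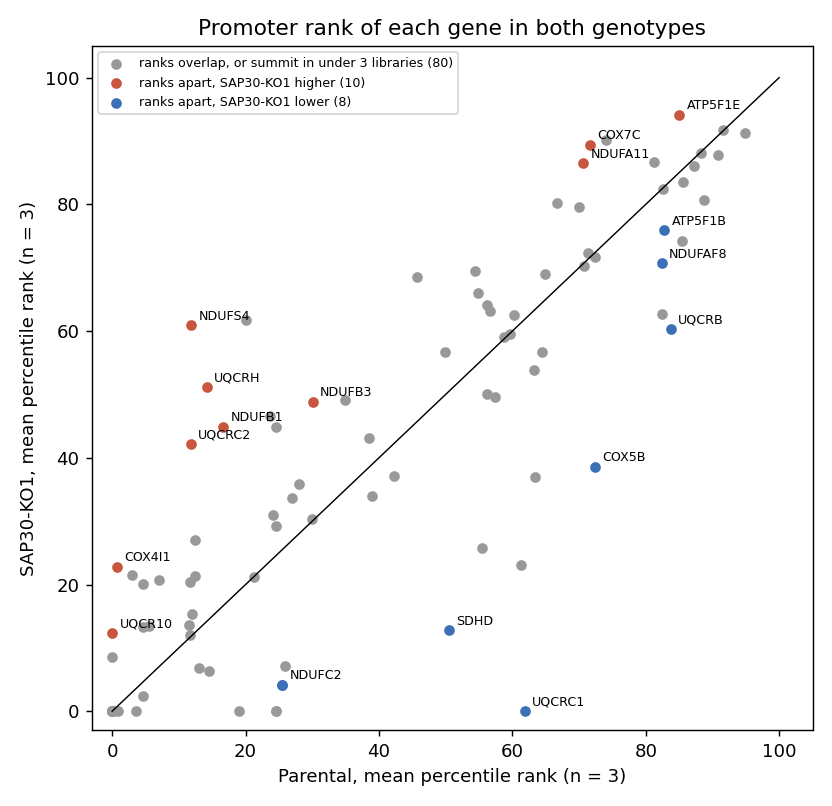
Mean promoter rank of each of the 98 genes in parental (x axis) and SAP30-KO1 cells (y axis, n = 3 each), with the diagonal as a line. Coloured points are the 18 genes whose ranks do not overlap between genotypes, 10 above the diagonal in red and 8 below it in blue (NDUFC2 and NDUFC2-KCTD14 share a point).

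Among the genes that lay apart, the 3 promoters with the widest differences outside chromosome 11 are printed in the order UQCRC1 (chr3:48647050-48647329, minus strand), NDUFS4 (chr5:52856219-52856498, plus strand) and UQCRH (chr1:46769120-46769399, plus strand). Their matches within these windows differ. UQCRC1 held a GC box, and NDUFS4 the YY1 letters 21 bases after the start. UQCRH held a CCAAT match and an ETS match 47 bases before the start. The UQCRC1 run ends in aagatgg, the YY1 letters without their last base, and a match across the window end was not counted.
UQCRC1: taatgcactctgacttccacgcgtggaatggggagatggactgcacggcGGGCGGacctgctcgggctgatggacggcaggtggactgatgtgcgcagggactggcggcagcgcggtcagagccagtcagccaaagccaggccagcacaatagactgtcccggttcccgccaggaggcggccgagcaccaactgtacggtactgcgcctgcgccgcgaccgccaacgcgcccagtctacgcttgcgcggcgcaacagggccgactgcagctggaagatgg
NDUFS4: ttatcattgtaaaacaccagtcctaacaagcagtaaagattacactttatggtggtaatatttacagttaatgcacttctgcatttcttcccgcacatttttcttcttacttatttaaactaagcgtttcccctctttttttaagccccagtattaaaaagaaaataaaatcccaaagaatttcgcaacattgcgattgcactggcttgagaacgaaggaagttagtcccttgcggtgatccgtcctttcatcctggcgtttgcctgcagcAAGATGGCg
UQCRH: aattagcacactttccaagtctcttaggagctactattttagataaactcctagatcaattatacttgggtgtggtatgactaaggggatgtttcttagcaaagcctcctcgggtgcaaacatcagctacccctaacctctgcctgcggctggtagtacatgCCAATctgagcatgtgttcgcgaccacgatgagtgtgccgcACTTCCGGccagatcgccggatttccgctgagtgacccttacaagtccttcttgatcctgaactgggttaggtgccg

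UQCRC1, a core protein of complex III, had the widest difference. Its ranks were 60.1, 69.0 and 56.4 in the parental libraries and 0 in each SAP30-KO1 library, a difference of -61.8 points (SE 15.5, limma adjusted p = 0.707). The parental summits lay a median of 80.0 bp after the nearest start site, and the nearest summit of a SAP30-KO1 library was 4.99 to 5.13 kb away. The parental scores were 6.64, 8.18 and 6.08, near the middle of the parental lists. A summit of similar rank was also missing between libraries of the same genotype, as for ATP5PO (60.4, 0 and 0 in parental). Why the UQCRC1 summit was absent from the SAP30-KO1 lists was not tested. With the outermost 5′ end as the only start site of the gene, this summit lay outside the window and UQCRC1 had no value.

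Other genes of complex III lay apart in both directions. UQCRH, the hinge protein, had ranks of 0, 31.4 and 11.1 in the parental and 40.8, 61.9 and 51.0 in the SAP30-KO1 libraries, a difference of 37.1 points (SE 16.8, limma adjusted p = 0.721). UQCRC2, the other core protein, had 0, 11.5 and 23.9 and then 51.3, 24.1 and 51.2, a difference of 30.4 points. All SAP30-KO1 libraries were above the parental ones, for UQCRC2 by 0.161 points between the nearest libraries. UQCRB, a small subunit, went the other way, with 87.1, 72.5 and 91.7 and then 42.5, 70.05 and 68.3. UQCR10 had no summit in parental cells and ranks of 15.5, 19.3 and 2.16 in SAP30-KO1. The difference of complex III as a whole was 0.126 points, with genes that lay apart on both sides.

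In complex I, NDUFS4, an accessory subunit of the matrix arm whose loss causes Leigh syndrome, had the widest difference. Its ranks were 8.43, 4.54 and 22.6 in the parental and 52.7, 55.8 and 74.1 in the SAP30-KO1 libraries, a difference of 49.0 points (SE 16.9, limma adjusted p = 0.707). The highest parental library lay 30.1 points below the lowest SAP30-KO1 library. NDUFB1 had 32.8, 0 and 17.2 and then 63.1, 37.8 and 33.8, and NDUFB3, which also belongs to the membrane arm, had 22.997, 34.6 and 32.7 and then 41.1, 58.5 and 47.0. NDUFA11, of the membrane arm, had 73.7, 66.9 and 71.2 and then 84.0, 88.9 and 86.7. Those 4 genes were higher in every SAP30-KO1 library. NDUFC2 had 13.6, 28.7 and 34.1 and then 12.6, 0 and 0, with 0.98 points between the nearest libraries. NDUFAF8, an assembly factor, had a difference of -11.7 points, with 0.881 points between the nearest libraries.

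In complex IV, COX5B, a subunit of the matrix side, had ranks of 63.0, 79.6 and 74.7 in the parental and 8.45, 58.1 and 49.2 in the SAP30-KO1 libraries, a difference of -33.9 points (SE 18.8, limma adjusted p = 0.742). SAP30-KO1 replicate 1 was far below its group. COX4I1, the largest nuclear subunit, had a weak or no summit in the parental libraries (0, 2.33 and 0) and ranks of 29.1, 12.4 and 27.0 in SAP30-KO1, a difference of 22.1 points. COX7C had 66.9, 87.6 and 60.2 and then 88.7, 89.7 and 89.8. For COX7C the highest parental library came within 1.14 points of the lowest SAP30-KO1 library.

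In complex V, the 2 genes that lay apart had high ranks in both genotypes. ATP5F1E had 82.3, 89.9 and 83.0 in the parental and 93.7, 94.0 and 94.7 in the SAP30-KO1 libraries, a difference of 9.08 points (SE 3.29, limma adjusted p = 0.707). ATP5F1B, the catalytic beta subunit, had 83.5, 85.6 and 79.4 and then 75.8, 73.4 and 78.7, a difference of -6.85 points. ATP5PO, the subunit that joins head and stalk, had a wider difference (41.6 points) but overlapping groups, with 60.4, 0 and 0 and then 65.5, 75.7 and 44.03. ATP5MJ, a small subunit, likewise overlapped, with 75.2, 27.6 and 81.1 and then 12.2, 0 and 56.98.

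**Figure D5:**
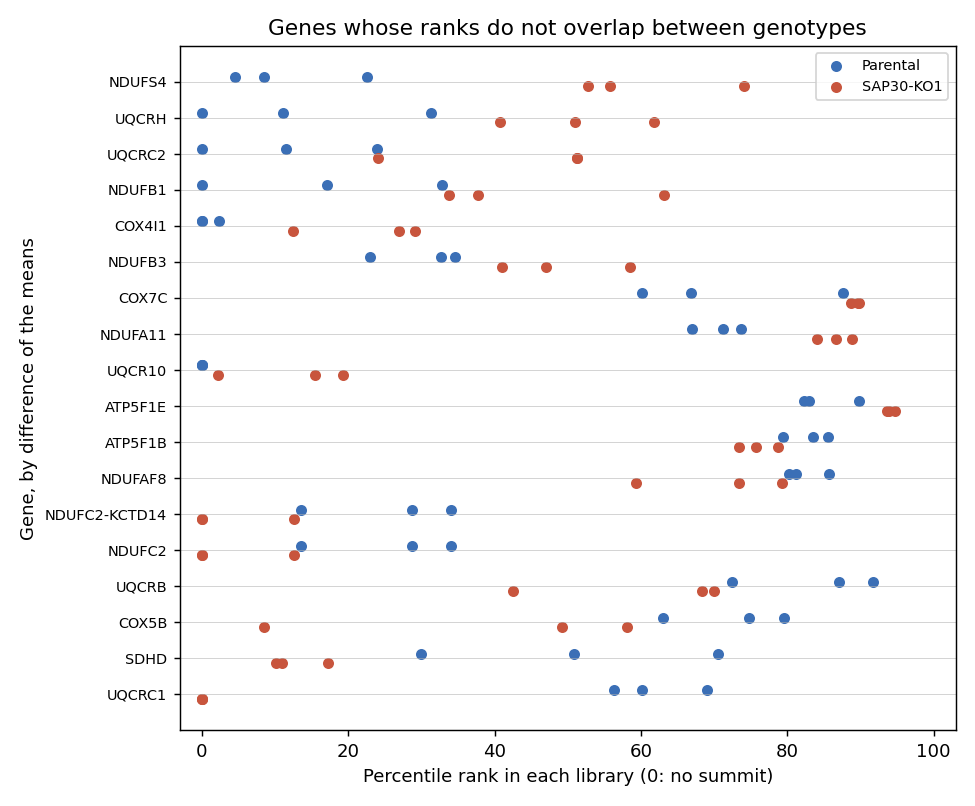
Percentile rank in each library for the 18 genes whose ranks do not overlap between genotypes, with parental libraries in blue and SAP30-KO1 libraries in red (0 is no summit), ordered by the difference of the means. UQCRC1 is at 0 in all SAP30-KO1 libraries. The gap between groups is at most 1.14 points for UQCRC2, ATP5F1B, NDUFAF8, NDUFB1, NDUFC2 with NDUFC2-KCTD14, and COX7C.

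The long arm of chromosome 11 had lower ranks in SAP30-KO1 as a whole and holds 7 of the 98 genes. Of the 390 genes tested there, 83.6% had a lower mean rank in SAP30-KO1, with a median difference of -13.3 points, against 1.12 points over the tested genes elsewhere. The respiratory genes there were COX8A, NDUFV1, NDUFS8, NDUFC2, NDUFC2-KCTD14, SDHD and ATP5MG. Of the 5 that were tested, 4 were lower, with a median difference of -21.3 points. Counting NDUFC2 once, 3 of 4 promoters were lower, with a median of -25.5 points. COX8A had 81.3, 36.9 and 48.0 in the parental and 35.3, 42.0 and 0 in the SAP30-KO1 libraries, which overlapped. SDHD had 50.8, 70.5 and 29.97 and then 10.2, 17.2 and 10.9, a difference of -37.7 points (SE 16.8, limma adjusted p = 0.721), with all SAP30-KO1 libraries below the parental ones. The part of this shift of the arm in the ranks of its single genes was not tested, and copy number was not measured here.

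Ranks were therefore also taken among the summits of the same chromosome arm. SDHD still lay apart, with a difference of -30.3 points, and NDUFC2 no longer did (-18.3 points). UQCRC2, on 16p, no longer lay apart either. Of the 18 genes, 15 lay apart within their arm as well. UQCRC1 (-58.1 points), NDUFS4 (45.5), UQCRH (35.7) and COX5B (-33.9) changed little. Across the 7 ways of choosing and ranking summits that were tried, NDUFB3, NDUFS4, SDHD, UQCRB, UQCRH, COX5B and ATP5F1E lay apart in each, and COX4I1 in 3.

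Other genes of the same metabolism were followed as lists. Among 12 regulators of respiratory genes, 6 had a promoter summit in all 6 libraries and 1 of 10 tested lay apart (10.0%, against the 12.7% of all genes). This was PPARGC1A, the coactivator PGC-1α, with a mean rank of 16.7 in the parental and 59.9 in the SAP30-KO1 libraries (limma adjusted p = 0.721). Its ranks were 0, 50.1 and 0 in the parental and 53.6, 65.5 and 60.5 in the SAP30-KO1 libraries, so the parental mean rests on 1 library. PPARGC1A lies on 4p, where the 131 genes tested had a median difference of 11.1 points. The genes of the factors behind the motifs had mean ranks of 16.9 for NRF1, 59.6 for GABPA and 59.7 for YY1, with overlapping groups. GABPA shares its summit with ATP5PF, so its ranks repeat those of that respiratory gene. TFB2M, TFB1M and TFAM, which act in mitochondrial gene expression, had 98.1, 92.8 and 87.4.

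Of 31 assembly factors outside the name rule, 22 had a summit in all 6 libraries (71.0%), with a median mean rank of 63.7, above the 34.9 of the 98 genes. Of the 26 tested 3 lay apart (11.5%, near the share of all genes), COX19 upward and FOXRED1 and TMEM126B, both on 11q, downward. COX19 had summits in SAP30-KO1 alone (38.5, 29.6 and 22.2), and so entered the fit only through the group where it was high. Of 12 genes of the citric acid cycle, 10 had a summit in all 6 libraries (median 60.3), and 1 of 11 tested lay apart (9.09%), SUCLA2, with a difference of -11.9 points. Of 15 glycolytic genes, 7 had a summit in all 6 libraries (median 34.8), and 2 of 11 tested lay apart (18.2%), GPI upward and LDHA downward. None of these genes was called by limma.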

How the data were processed

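ATAC-seq was analysed from 3 parental and 3 SAP30-KO1 libraries of MDA-MB-231 cells, grouped by their labels. Per the labels and the study's methods, the authors sequenced single-end reads, trimmed them with Trim Galore 0.4.5, aligned them to hg19 with Bowtie2 2.3.3.1, took out duplicates with Picard, and used MACS2 2.1.0 to call peaks at a q value threshold of 0.05. FastQC 0.11.2 and ChIPseeker are also named. The deposited lists, 1 per library, hold summits with a −log10 q-value score. The unit was read from the values, whose minimum lay just above the −log10 of the threshold. Shifting of reads for the transposase, blacklist filtering and pooling are not given in the sources used here.

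The member genes, the gene lists, the motifs and the tests were chosen with earlier results of these data known. Named genes were all SDH genes, the isoform pairs, the highest and lowest member of each class among those with a summit in all 6 libraries, the 12 widest differences among members whose ranks do not overlap, members without a summit, members on 11q, and SAP30. Others named were chosen after their values were seen. The values of 1 member are not reported here, though it is part of the counts. Ranks were fitted with limma 3.58.1 (R 4.3.3, mean-variance trend) across the 10497 genes with a promoter summit in at least 3 libraries. A summit absent from a list was given rank 0. On simulated data the fit called most of the seeded differences when the spread between libraries was reduced, and none at the spread of these libraries, so that a lack of calls says little. The largest gap in the GRCh37 sequence of a chromosome divided its arms. Same-numbered libraries did not deviate together, so no block was used. Alternatives were stricter summits, other promoter windows, start sites, ranks and filters, a replicate block, and the omission of each library.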

Additional observations from a re-analysis of the deposited data

Results flagged for a closer look

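The respiratory chain also has subunits encoded in the mitochondrial genome, which the comparison of nuclear promoters did not use. Each library listed 4 or 5 mitochondrial summits, 26 over the 6 libraries, and the strongest of them had a rank of 99.92 to 99.98 in its library. They were flagged as a signal outside the main measurement. The lists have no control library for this signal, the mitochondrial reference of hg19 differs from that of the GRCh37 genome at hand, and no position is given. How mitochondrial reads were filtered is not given in the sources used here, and no difference between genotypes was tested.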

How the results depend on the processing

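No setting made a respiratory gene pass the limma threshold, and the difference in the number of open promoters and in mean rank kept its size within the spread between libraries in all settings but 1. That exception was complex III, whose difference of 0.126 points was 6.31 points with one start site per gene. The shares of all genes that lay apart were 12.7% as reported, 14.0% with an equal number of top-ranked summits and 12.8% with a summit in all 6 libraries. The number of respiratory genes that lay apart was 18 of 77, and fell to 11 of 72 with an equal number of top-ranked summits per library and to 10 of 42 among genes with a summit in all 6 libraries, with or without the logit of the rank. That last setting tests fewer genes, and the cause of the other was not tested. Counting NDUFC2 once, and taking the complex I subunits alone in the order of the complexes, were chosen after the data were seen. SDHA, at -4.90 points (-18.6 to 12.1 with each library left out), turned to 2.72 at a q value of 0.0001 or less, to 7.47 without Parental replicate 1 and to 12.1 without SAP30-KO1 replicate 1. SDHB, at 4.64 points (-13.9 to 19.2), turned to -7.66 without Parental replicate 2 and to -13.9 without SAP30-KO1 replicate 2. The other 23 genes whose difference was recomputed, the 18 that lay apart and SDHC, COX8A, NDUFV1, ATP5PO and ATP5MJ, kept their direction wherever they had a value. Differences of the remaining genes were not followed across settings. UQCRC1 had no value with one start site per gene, or without any 1 parental library, when fewer than 3 libraries were left with a summit.

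Leaving out each library in turn gave differences of -1.17 to 3.33 open promoters, -1.43 to 3.52 points over all 98 genes, 0.0112 to 6.36 in complex I, -25.8 to -3.27 in complex II, -1.29 to 1.53 in complex III, -3.25 to -0.927 in complex IV and -0.652 to 4.75 in complex V. In these settings 19 of 67 (28.4%) to 26 of 71 (36.6%) respiratory genes lay apart, against 21.4% to 24.3% of all genes tested. Both shares rose, as fewer libraries overlap less often. With the replicate block, no respiratory gene was called and the differences were the same by construction (0.947 points over all 98 genes). The deviations of same-numbered libraries correlated at -0.0277, -0.0303 and 0.0163, and not every library correlated best with its own number, so the numbers were not taken to pair the libraries. Leaving out members without a summit gave no other count. The lists hold no counts, so sequencing depth limits these values to an unknown degree.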
